A study of Mus musculus with 12 samples.

Results

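The 4 opioid receptor genes of the mouse were followed in the brainstem, which was the medulla with the pons, of pups at postnatal day 15 (P15). They were *Oprm1* (μ receptor), *Oprd1* (δ receptor), *Oprk1* (κ receptor), and *Oprl1* (nociceptin receptor), taken by symbol as 4 of the 55418 genes in the deposited count table. Libraries came from 12 mice, 3 in each of the groups saline female, saline male, morphine female, and morphine male. All mice were of the outbred strain CFW. Morphine pups received 15 mg/kg morphine sulfate subcutaneously 2 times per day from P1 to P14, saline pups received injections of saline, and tissue was taken 16 h after the last injection, a time of spontaneous withdrawal. Every morphine group was therefore in withdrawal, and exposure and withdrawal cannot be told apart. Drug reached the pups by injection and not through the dam, and each mouse gave 1 library of whole brainstem.

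Opioid receptors are receptors of the cell membrane that couple to inhibitory G proteins. Once an agonist binds, the G protein lowers the activity of adenylyl cyclase, opens inwardly rectifying potassium channels (GIRK), and closes calcium channels, so that the neuron fires less and releases less transmitter. The μ receptor is the main target of morphine in analgesia, respiratory depression, and dependence, and the brainstem holds circuits for breathing, descending pain control, and the noradrenergic signs of withdrawal.

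Counts per library ran from 27850565 to 48097947, with a median of 33214511. Levels are CPM, the counts of a gene scaled to the same library total, after TMM normalization between libraries. Defining genes of the region were present, with the glycine transporter *Slc6a5* at 479 to 638 CPM and the serotonin enzyme *Tph2* at 20.2 to 41.6 CPM. The 5 trunk *Hox* markers of the spinal cord summed to at most 0.523 CPM in any library, and none of the 5 reached a mean of 1 CPM, although the deposited extraction text names spinal cords. Other content varied. The 4 choroid plexus markers summed to 8.19 to 514 CPM in saline and 26.5 to 814 CPM in morphine mice. Of these, *Ttr* had a mean of 123 CPM in females and 506 CPM in males. The oligodendrocyte gene *Mbp* ran from 8351 to 27534 CPM. The 8 neuron markers varied less, at 4160 to 5441 CPM in saline and 4149 to 5045 CPM in morphine mice. The part of such content in the receptor levels was not tested. A pair of libraries stood apart. Saline male 3 differed from the other saline males by 259 and 340 (χ2 per degree of freedom over genes), against 15.1 to 56.6 for every other pair within a group. The library labelled morphine male 6 held 380 CPM of *Xist*, which females express, and 12.8 CPM of the Y-linked *Ddx3y*, whereas the other 5 males had at most 2.71 CPM of *Xist* and at least 118 CPM of *Ddx3y*. Results that moved without either library are given below.

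The receptor genes lie on different chromosomes (GENCODE M21, build GRCm38). *Oprm1* spans chr10:6758506-7038198 on the plus strand and has 31 annotated transcripts, whereas *Oprd1* (chr4:132110726-132144486, minus strand) has 1. *Oprk1* (chr1:5588466-5606131, plus strand) has 5 transcripts and *Oprl1* (chr2:181715016-181720985, plus strand) has 11. The joined exons cover 8037 bp in *Oprm1*, 4021 bp in *Oprd1*, 9151 bp in *Oprk1*, and 3753 bp in *Oprl1*. *Oprm1* was the only one of the 4 with genes overlapping its locus, both on the opposite strand. One of them, *Ipcef1*, shares 96 bp of exon with *Oprm1* and was itself at 17.3 to 27.6 CPM. The settings for strand and shared reads were not given in the sources used here, so reads in those 96 bp cannot be assigned to either gene. Across the 12 libraries the level of *Ipcef1* had a correlation of 0.08 with that of *Oprm1* (Pearson *r* of log2 CPM).

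To show how the sequence before the start differs between the receptors, the 120 bases upstream of 1 RefSeq start are printed for each of 3 receptors (build GRCm38.p6, 5′ to 3′ on the strand of the gene, CG dinucleotides in capitals). Start windows in that set run from 250 bases before to 50 bases after a start, and 3 of the 4 receptors had at least 1.
*Oprm1*, chr10:6788450-6788569, plus strand: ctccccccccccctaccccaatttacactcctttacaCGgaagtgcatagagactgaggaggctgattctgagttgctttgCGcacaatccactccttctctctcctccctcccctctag
*Oprd1*, chr4:132144487-132144606, minus strand: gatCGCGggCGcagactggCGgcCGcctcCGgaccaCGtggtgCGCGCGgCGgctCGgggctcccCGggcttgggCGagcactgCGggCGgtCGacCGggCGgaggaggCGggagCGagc
*Oprl1*, chr2:181714896-181715015, plus strand: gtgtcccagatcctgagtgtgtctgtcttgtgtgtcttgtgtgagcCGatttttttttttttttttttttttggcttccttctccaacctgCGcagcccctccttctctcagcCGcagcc

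The *Oprd1* stretch holds 21 CG, the *Oprl1* stretch 3, and the *Oprm1* stretch 2. Over the whole windows *Oprd1* had 43 CG and a GC content of 79.3%, and 97.4% of the 32851 windows had fewer CG. The window of the printed start had 4 CG in *Oprm1* and 5 in *Oprl1*. Both genes had further windows, with 3 and 5 CG in *Oprm1* and 2 in each of those of *Oprl1*. All of these lay below the median of 7 CG over all windows. These counts describe the sequence only. *Oprl1*, with few CG, had the highest level of RNA and *Oprm1*, also with few, the lowest, as given next.

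*Oprl1* RNA was by far the most abundant of the 4. This receptor binds nociceptin and not the classical opioids. Its counts ran from 2662 to 3959 per library, and its level over the 12 mice was 91.8 CPM ± 5.26 (SD, *n* = 12). *Oprk1*, the receptor for dynorphins, was at 14.3 CPM ± 2.09 (SD, *n* = 12), with 327 to 593 counts. *Oprd1*, which binds enkephalins, was at 11.4 CPM ± 1.43 (SD, *n* = 12), with 254 to 552 counts. *Oprm1*, which binds β-endorphin and enkephalins as well as morphine, was lowest at 3.37 CPM ± 0.93 (SD, *n* = 12), with 59 to 161 counts.

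To compare the genes, CPM was divided by the length of the joined exons. On that scale *Oprl1* was at 24.5 CPM per kb ± 1.40, *Oprd1* at 2.83 ± 0.357, *Oprk1* at 1.56 ± 0.228, and *Oprm1* at 0.419 ± 0.116 (SD, *n* = 12 each). *Oprl1* was above *Oprd1* by a mean log2 ratio of 3.12 ± 0.18 (SD), or 8.69-fold, *Oprd1* above *Oprk1* by 0.86 ± 0.29, or 1.82-fold, and *Oprk1* above *Oprm1* by 1.94 ± 0.40, or 3.83-fold. Each of these steps held in 12 of 12 libraries, and all 3 passed an exact two-sided sign-flip permutation test over the libraries (adjusted *p* = 0.00049 over 3 tests, the smallest that 12 libraries can give). The libraries are of all 4 groups, so the test concerns these mice as 1 set. The order tested was that of the mean levels in the same libraries, and the lengths enter each ratio as fixed divisors. The test therefore cannot establish the order apart from these libraries and this length.

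The place of *Oprk1* depended on the length used. With the longest protein-coding transcript in place of the joined exons, *Oprk1* was above *Oprd1* by a log2 ratio of 0.10 in 8 of 12 libraries, which did not pass the exact sign-flip test (adjusted *p* = 0.23). With the coding length it was above by 0.29 in 10 of 12 libraries and passed (adjusted *p* = 0.0073, exact sign-flip test). *Oprl1* was highest and *Oprm1* lowest with all 3 lengths, in 12 of 12 libraries each. No length was chosen by the reads themselves, so *Oprd1* and *Oprk1* have no settled order in these counts.

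**Figure D1:**
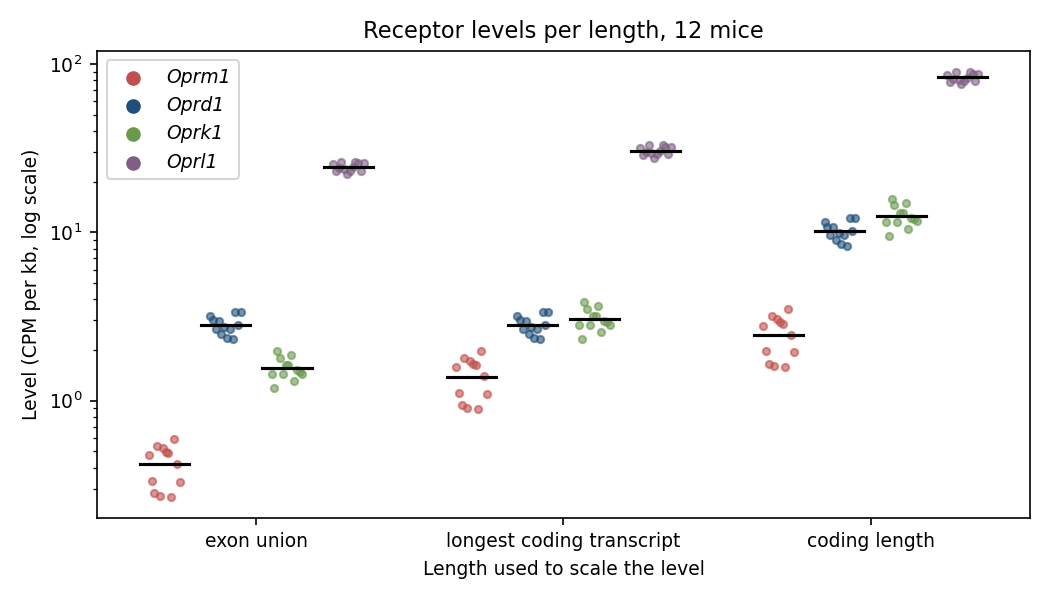
Level of each receptor in the 12 mice (points) in CPM per kb on a log axis, with the length of the joined exons, of the longest protein-coding transcript, or of the coding sequence as the divisor. Black bars are means. *Oprl1* lies above and *Oprm1* below the others throughout, whereas *Oprd1* and *Oprk1* change places.

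As shares of the summed CPM per kb of the 4 receptors (joined exons), *Oprl1* held 83.6% ± 1.33, *Oprd1* 9.67% ± 1.03, *Oprk1* 5.34% ± 0.80, and *Oprm1* 1.43% ± 0.39 (SD, *n* = 12 each). The *Oprl1* share on this scale was between 82.0% and 87.1% in every library. The shares depended on the length used. With the longest protein-coding transcript *Oprl1* held 80.8% and *Oprm1* 3.66%, and with the coding length 76.8% and 2.26%. Ranks among all genes were taken with the joined exons only. Among the 18608 genes tested in the sex-combined comparison, 90.4% had a lower mean CPM per kb than *Oprl1* and 17.7% a lower one than *Oprm1*. *Oprd1* stood above 48.2% and *Oprk1* above 37.5% of them, and the median gene had 3.11 CPM per kb.

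The receptors differed also in how much they varied between mice. The coefficient of variation over the 12 mice was 27.7% for *Oprm1*, 14.6% for *Oprk1*, 12.6% for *Oprd1*, and 5.73% for *Oprl1*. Counting error alone gives 9.83%, 4.61%, 5.17%, and 1.80%, in the same order. These mice are separate animals of 4 groups, so the spread holds more than counting error. The highest *Oprm1* library had 2.21 times the CPM of the lowest. In the library with the fewest *Oprm1* counts, morphine female 3, the 59 counts give 2.12 CPM of total counts with a 95% Wilson interval from 1.64 to 2.73. In morphine male 4, the highest, 161 counts gave an interval from 4.33 to 5.90 CPM of total counts. Such intervals cover counting error only.

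The first comparison asked whether receptor RNA differed between the 6 morphine and the 6 saline mice, with sex as a covariate. None of the 4 receptors was called, where a call needs a log2 fold change of more than 0.26 in size and a *p* below 0.05 before adjustment. Over all 18608 genes tested, 221 were called, or 1.19% (quasi-likelihood test of edgeR, with adjusted *p* values after Benjamini and Hochberg, here and below). Only 246 had an unadjusted *p* under 0.05 in edgeR, a smaller share than that threshold gives where nothing differs. After adjustment 0 genes stayed under 0.05 in this comparison, in each sex alone, and in the interaction, and 5 did between males and females. The shares called are thus a background and not counts of genes shown to change. In this comparison, in each sex alone, and in the interaction, 0 of the 4 receptors had an unadjusted *p* under 0.05 in edgeR, and DESeq2 called 0 of 4 in each.

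*Oprm1* ranged in saline mice from 2.19 to 4.34 CPM with a median of 3.25, and in morphine mice from 2.16 to 4.79 CPM with a median of 3.65. High and low libraries occurred under both treatments, and the ranges overlapped over most of their width. The log2 fold change was 0.12 ± 0.24 (SE), with a 95% confidence interval from -0.39 to 0.63 (adjusted *p* = 1.00 in edgeR). As a ratio the interval reached from 0.762-fold to 1.55-fold, and changes within those bounds were not excluded.

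*Oprd1* ranged from 10.0 to 12.8 CPM in saline mice, with a median of 11.5, and from 9.32 to 13.5 CPM in morphine mice, with a median of 11.0. The morphine range enclosed the saline range, and its lowest and highest libraries were of different sexes. The log2 fold change was -0.02 ± 0.10 (SE), with an interval from -0.24 to 0.21.

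*Oprk1* lay between 10.85 and 17.95 CPM in saline mice, with a median of 14.03, and between 12.0 and 17.1 CPM in morphine mice, with a median of 13.8. Both the lowest and the highest library were saline males, the highest being saline male 3, the library that stood apart. The log2 fold change was -0.02 ± 0.13 (SE), with an interval from -0.30 to 0.27.

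*Oprl1* lay between 83.5 and 98.8 CPM in saline mice, with a median of 89.6, and between 87.3 and 98.7 CPM in morphine mice, with a median of 94.0. The upper ends were nearly the same and the lowest library was a saline female. The log2 fold change was 0.05 ± 0.07 (SE), and its interval in this fit ran from -0.10 to 0.20, or from 0.933-fold to 1.15-fold. Scaling by total counts gave 0.098 ± 0.069 (SE), so these bounds depend on the scaling. In bulk tissue, fewer cells of a type and less RNA per cell cannot be told apart.

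**Figure D2:**
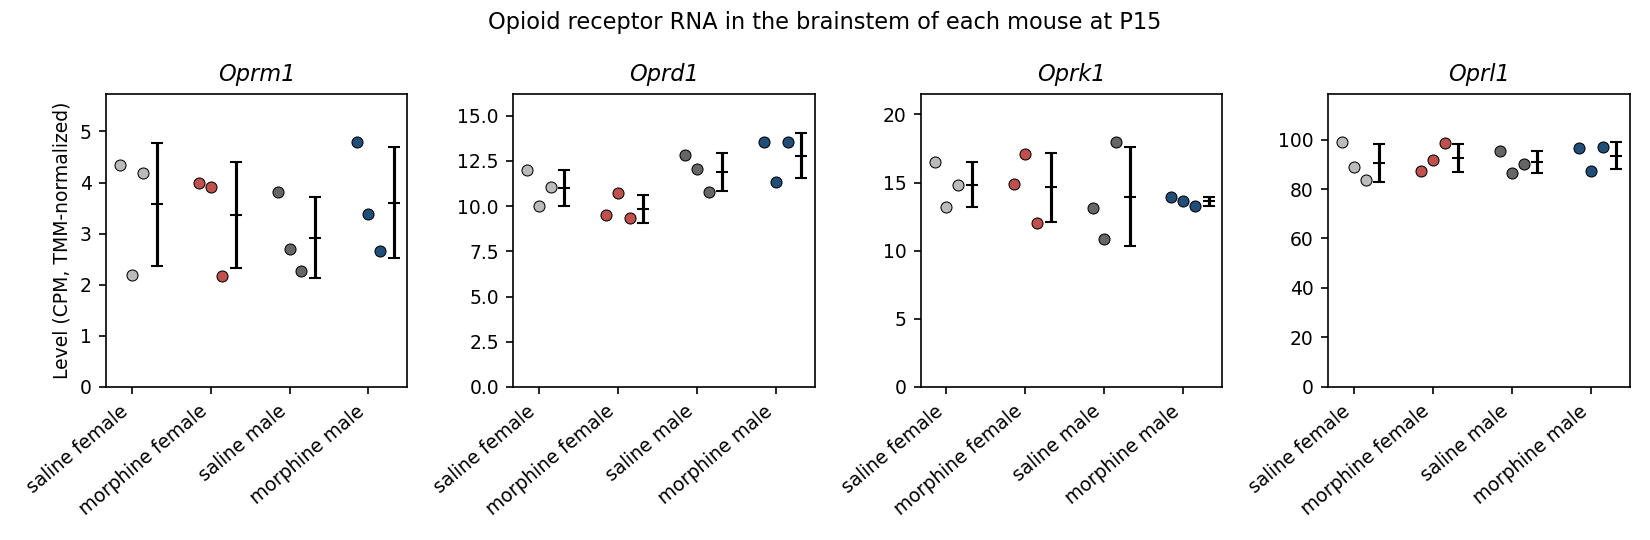
TMM-normalized CPM of each receptor in every mouse (points), by group, with the mean and SD of 3 mice beside them. Vertical axes start at 0 and differ between panels. Morphine and saline points overlap in each panel. The *Oprd1* points of morphine males, at 11.3 to 13.5 CPM, lie above those of morphine females. Those males include the library labelled morphine male 6, and how many of all genes separate these groups was not counted.

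The females were compared next. None of the 4 receptors was called between 3 morphine and 3 saline females, against 1.81% of the 18109 genes tested. *Oprm1* was at 4.34, 2.19, and 4.19 CPM in saline females and at 4.00, 3.92, and 2.16 CPM in morphine females. Each group thus had 1 low library and a pair near 4 CPM. The log2 fold change of *Oprm1* was -0.09 ± 0.31 (SE). *Oprd1* was at 12.0, 10.0, and 11.1 CPM in saline females and at 9.50, 10.7, and 9.32 CPM in morphine females. A pair of morphine females lay below every saline female and the third lay among them, with a log2 fold change of -0.17 ± 0.13 (SE, interval from -0.46 to 0.13, adjusted *p* = 1.00 in edgeR). For *Oprk1* and *Oprl1* the values were -0.02 ± 0.15 and 0.03 ± 0.09 (SE).

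In males, again none of the 4 receptors was called between 3 morphine and 3 saline mice, against 2.99% of 18166 genes. *Oprm1* was at 3.81, 2.69, and 2.27 CPM in saline males and at 4.79, 3.38, and 2.66 CPM in morphine males. The groups overlapped, although the highest library of the 6 was a morphine male and the lowest was saline male 3. Its log2 fold change was 0.30 ± 0.30 (SE), with the widest interval within a sex, from -0.42 to 1.01. Without morphine male 4 it was 0.04 ± 0.32, without saline male 3 it was 0.18 ± 0.28, and without the library labelled morphine male 6 it was 0.47 ± 0.32. *Oprd1* was at 12.8, 12.1, and 10.8 CPM in saline males and at 13.5, 11.3, and 13.5 CPM in morphine males, with a log2 fold change of 0.10 ± 0.16 (SE).

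*Oprk1* in males showed the most uneven groups. Saline males were at 13.11, 10.85, and 17.95 CPM, whereas morphine males were at 13.97, 13.64, and 13.26 CPM. All 3 morphine males lay between the second and the highest saline male. The log2 fold change was -0.05 ± 0.22 (SE) with all 6 males and 0.22 ± 0.14 without saline male 3, so that 1 library set its sign, and neither value was called. *Oprl1* was at 95.5, 86.6, and 90.2 CPM in saline males and at 96.5, 87.3, and 96.8 CPM in morphine males, with a log2 fold change of 0.03 ± 0.12 (SE).

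The difference between the sexes in the response to morphine was tested as an interaction over the 12 mice, coded as the male minus the female log2 fold change. None of the 4 receptors was called, against 2.94% of 19027 genes. The values were 0.41 ± 0.48 for *Oprm1*, 0.28 ± 0.20 for *Oprd1*, -0.004 ± 0.28 for *Oprk1*, and 0.02 ± 0.15 for *Oprl1* (SE). The interval for *Oprm1* ran from -0.63 to 1.44 and that for *Oprd1* from -0.16 to 0.72, so differences of more than 1.5-fold between the sexes were not excluded for either. With 1 mouse left out *Oprm1* ran from 0.14, without morphine male 4, to 0.64, without saline male 1, and *Oprd1* was at 0.15 without saline male 3 and the library labelled morphine male 6 together.

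**Figure D3:**
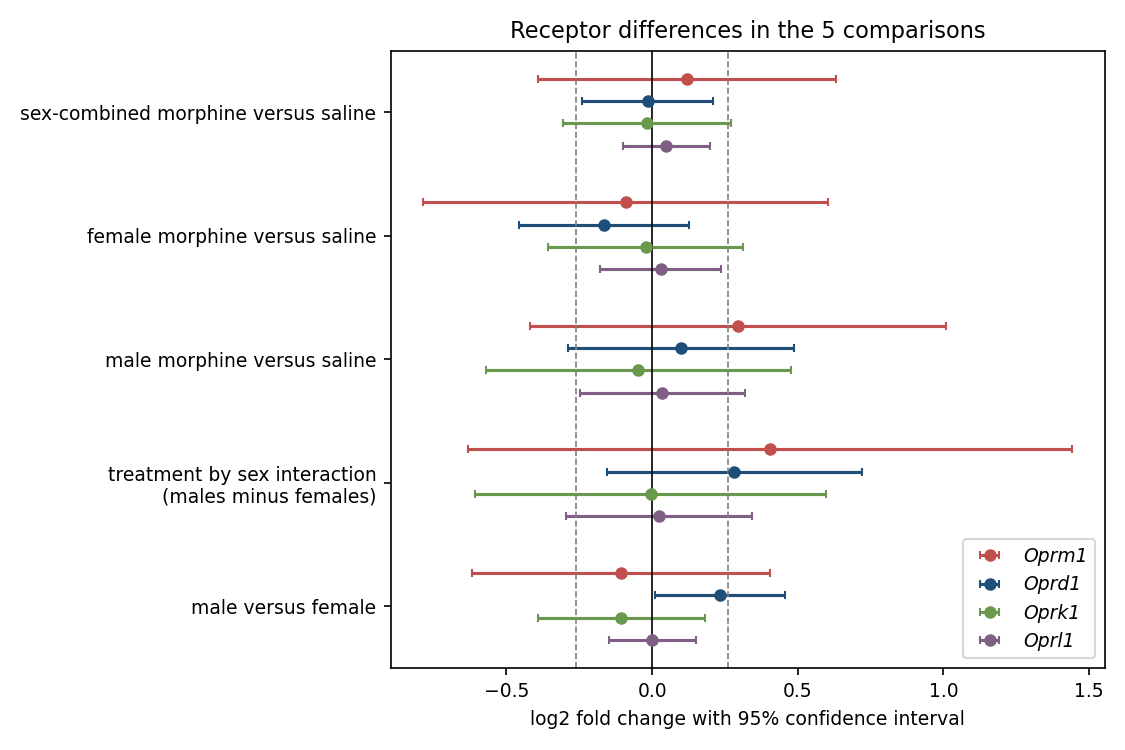
log2 fold change of each receptor (points) with its 95% confidence interval (bars) in the 5 comparisons, from the edgeR fits. Dashed lines mark ± 0.26, the fold change a call needs. Every interval spans 0 except that of *Oprd1* in males versus females, from 0.009 to 0.46. In each comparison *Oprm1* has the widest interval and *Oprl1* the narrowest.

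Sex itself was compared over both treatments. None of the 4 receptors was called between 6 males and 6 females, against 3.94% of 18608 genes. *Oprd1* came nearest. It lay between 9.32 and 12.0 CPM in females, with a median of 10.4, and between 10.8 and 13.5 CPM in males, with a median of 12.4. These ranges overlapped. Within the morphine mice they did not, since females were at 9.32 to 10.7 CPM and males at 11.3 to 13.5 CPM. Those males include the library labelled morphine male 6, at 13.5 CPM. How many of all genes separate the sexes in this way was not counted. The *Oprd1* interaction was not called (unadjusted *p* = 0.19 in edgeR). Over both treatments the log2 difference was 0.23 ± 0.10 (SE), higher in males, with an interval from 0.01 to 0.46 (edgeR, unadjusted *p* = 0.0428, adjusted *p* = 0.73). It stayed under the fold threshold and would be called on the unadjusted *p* alone, a rule that 4.55% of all genes met.

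Leaving out saline male 3, saline female 4, or saline female 6 moved the *Oprd1* difference past the fold threshold, to 0.30, 0.28, and 0.28, while the number of all genes called without saline male 3 rose from 733 to 3947. Without the library labelled morphine male 6 the *Oprd1* difference was 0.20, and its unadjusted *p* of 0.0973 in edgeR no longer passed. The other receptors differed between males and females by -0.11 ± 0.24 (*Oprm1*), -0.11 ± 0.13 (*Oprk1*), and 0.00004 ± 0.07 (*Oprl1*) on the log2 scale (SE).

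Ratios between receptors within a library do not depend on how libraries are scaled, so the 6 pairs were compared as log2 ratios of counts. None of the 6 differed between morphine and saline mice (exact two-sided permutation test over all splits of 6 against 6, adjusted *p* = 0.95 for each). The largest difference was in *Oprm1*/*Oprd1*, with a mean log2 ratio of -1.87 ± 0.38 in saline and -1.73 ± 0.42 in morphine mice (SD, *n* = 6 each, exact permutation *p* = 0.56). The smallest was in *Oprd1*/*Oprk1*, at -0.32 ± 0.32 and -0.33 ± 0.29 (SD, *n* = 6 each, exact permutation *p* = 0.95). *Oprd1*/*Oprl1* was tightest among saline mice, with an SD of 0.12, against 0.22 among morphine mice.

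The receptors were weakly related to each other from mouse to mouse. Over the 12 libraries the Pearson *r* of log2 CPM was 0.37 between *Oprm1* and *Oprd1*, 0.33 between *Oprm1* and *Oprk1*, and 0.31 between *Oprd1* and *Oprl1*. The other 3 pairs lay between -0.11 and 0.001. These are descriptions over libraries that share normalization and differ in group.

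The genes whose levels were most like each receptor were sought among 15055 others by Pearson *r* of log2 CPM over the 12 libraries. The values describe the best of many candidates, with no test. For *Oprk1* they were *Rbm15* (*r* = 0.96), the prostaglandin receptor gene *Ptger3* (*r* = 0.96), and *Slc5a7* (*r* = 0.94), the choline transporter of cholinergic neurons. Without the 2 libraries farthest from the *Oprk1* median, saline male 2 and saline male 3, these fell to 0.90, 0.91, and 0.88. *Slc5a7* was highest in saline male 3, at 91.8 CPM, and lowest in saline male 2, at 45.2 CPM, as was *Oprk1*. The other cholinergic markers did not go with it, as *r* with *Oprk1* was -0.05 for *Chat*, the acetylcholine-synthesizing enzyme, and -0.62 for *Slc18a3*, the vesicular acetylcholine transporter. Genes outside the cholinergic list reached similar sizes, with *r* = -0.69 for the noradrenergic marker *Dbh*, -0.64 for the nociceptin precursor *Pnoc*, and 0.63 for *Ipcef1*. The summed noradrenergic markers had *r* = -0.78, although *Slc6a2* alone had -0.30. The 3 cholinergic markers summed to 68.4 to 104 CPM in saline and 66.9 to 92.3 CPM in morphine mice, with all 3 above a mean of 1 CPM, and their part in the *Oprk1* level was not tested.

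For *Oprl1* the nearest gene was *Slc6a4* (*r* = 0.92, and 0.94 without saline female 4 and saline female 6), the serotonin transporter of raphe neurons. The serotonin enzyme *Tph2* had *r* = 0.80 with *Oprl1*, and the raphe transcription factor gene *Fev*, at a mean of 0.575 CPM, had *r* = 0.49. Genes outside the raphe list lay above *Fev*, with *r* = 0.68 for the enkephalin precursor *Penk*, 0.62 for the noradrenergic marker *Dbh*, and 0.57 for *Chat*. Others lay below it, at 0.44 for the noradrenergic marker *Slc6a2*, 0.32 for *Slc18a3*, and 0.02 for *Slc5a7*. In the search, *Slc6a4* was followed by *Dok5* (*r* = 0.89) and *Gm5124* (*r* = 0.87). *Slc6a4* ran from 12.2 to 25.1 CPM, whereas *Oprl1* moved over a range of only 1.18-fold. The summed level of the 3 raphe markers was 35.6 to 63.2 CPM in saline and 40.3 to 67.4 CPM in morphine mice, and 2 of the 3 reached a mean of 1 CPM. Its part in the *Oprl1* level was not tested.

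**Figure D4:**
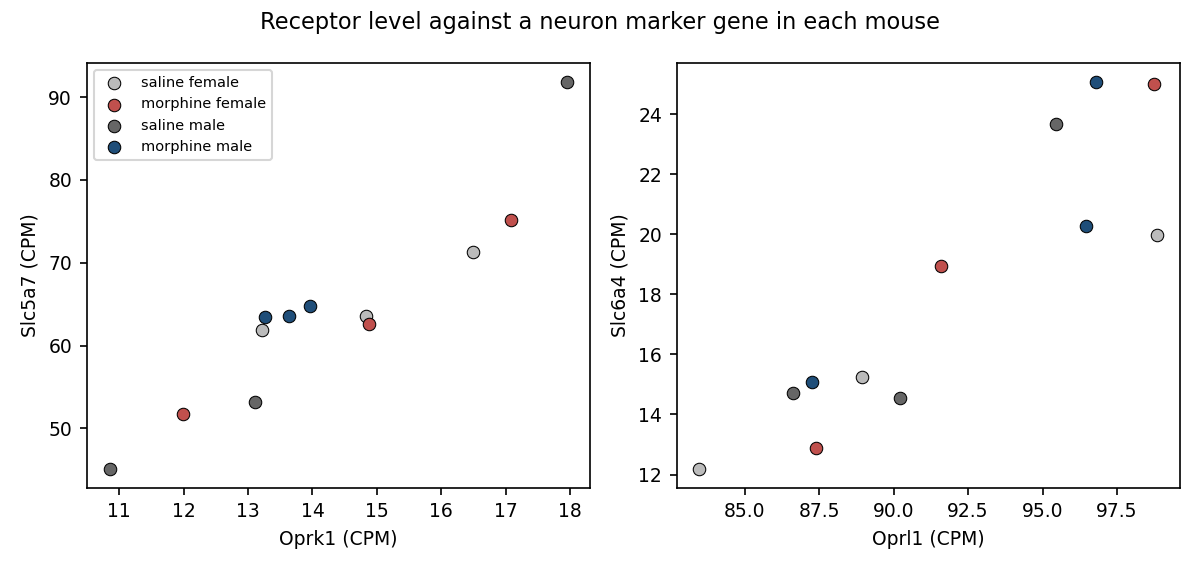
Level of *Oprk1* against *Slc5a7* (left) and of *Oprl1* against *Slc6a4* (right), in TMM-normalized CPM, 1 point per mouse and coloured by group. Axes do not start at 0. Both pairs rise together across groups, and saline male 3 is the point at the upper right of the left panel, at 17.95 and 91.8 CPM.

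*Oprd1* was most like *Dlc1* (*r* = 0.91), *Lmtk2* (*r* = 0.90), and the plasma membrane calcium pump gene *Atp2b3* (*r* = 0.87). *Oprm1* was most like the diacylglycerol kinase gene *Dgki* (*r* = 0.89), *Gm7240* (*r* = 0.88), and *Map3k19* (*r* = 0.87). Without the 2 libraries farthest from the median of the receptor, the values for these 6 genes were between 0.78 and 0.92. None of the 12 genes found in this way was shared between receptors.

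Ligands were read beside their receptors. *Penk*, the enkephalin precursor, was the most abundant of the 4 precursors at 97.5 CPM, and had a log2 fold change of 0.03 ± 0.12 (SE) in the sex-combined comparison. *Pdyn*, the dynorphin precursor, ran from 5.12 to 8.14 CPM, with a log2 fold change of 0.01 ± 0.13 (SE). Neither was called in any of the 5 comparisons. *Pomc*, the β-endorphin precursor, had only 1 to 56 counts per library and was not tested in females. Its log2 fold change was -1.01 ± 0.53 in the sex-combined comparison and -1.45 ± 0.78 in males (SE), neither called. *Pomc* was called between the sexes, with a log2 difference of 1.75 ± 0.53 (SE, higher in males, adjusted *p* = 0.73 in edgeR). Saline male 1, with 25 counts, and saline male 2, with 56, stood above all others, and morphine male 4 had the lowest count of the 12.

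*Pnoc*, the precursor of nociceptin and so the ligand gene of *Oprl1*, was at 6.06, 5.26, and 3.79 CPM in saline females and at 7.93, 5.73, and 7.63 CPM in morphine females. Morphine female 2 lay below saline female 4, so the groups overlapped, and the log2 fold change of 0.49 ± 0.20 (SE) was called (adjusted *p* = 1.00 in edgeR). The call was lost in a joint fit of 4 groups, and without saline female 5, saline female 6, morphine female 1, or morphine female 3. In males it was at 14.1, 12.5, and 4.17 CPM under saline and at 5.65, 5.67, and 8.24 CPM under morphine, with a log2 fold change of -0.66 ± 0.44 (SE), not called. *Oprl1* differed between the same groups by 0.03 in each sex.

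The other genes of opioid signaling formed 10 lists of 60 genes in all with the precursors. In the sex-combined comparison none of the 60 was called, and 0 had an unadjusted *p* under 0.05 in edgeR, against the 1.19% of all genes called. In females 1 of 57 tested was called (*Pnoc*), or 1.75% against 1.81% of all genes. In males it was 1 of 60, the GIRK subunit gene *Kcnj6*, or 1.67% against 2.99% of all genes. *Kcnj6* encodes a channel that the receptors open. It was at 5.66, 5.12, and 5.33 CPM in saline males and at 7.73, 7.31, and 7.65 CPM in morphine males. The value of 7.65 CPM is of the library labelled morphine male 6. These groups did not overlap, but the gene was named because it was called. How many of all genes separate the groups was not counted. The log2 fold change of *Kcnj6* was 0.49 ± 0.16 (SE, adjusted *p* = 1.00 in edgeR). The call was lost without a filter on low counts, at 0.48, and without saline male 2, morphine male 4, or the library labelled morphine male 6. In females it was at 6.15, 5.99, and 7.22 CPM under saline and at 6.27, 6.31, and 4.66 CPM under morphine. The other 3 GIRK subunit genes were not called in males.

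The interaction called 3 of the 60 genes, which were *Kcnj6*, *Pnoc*, and *Rgs14*, and males differed from females in 2 of 60, *Pomc* and *Anpep*. *Anpep* encodes an aminopeptidase that degrades enkephalins, and was higher in males by 0.30 ± 0.13 (SE, log2 scale, adjusted *p* = 0.73 in edgeR). The *Anpep* call was lost without a filter on low counts and in 8 of 12 fits with 1 mouse left out, and without saline male 2 the difference was 0.23. The shares, 5.00% and 3.33%, stood against 2.94% and 3.94% of all genes. No gene was called in 6 of the 10 lists in any comparison. These were the inhibitory G protein α subunits, the adenylyl cyclases, the receptor kinases and arrestins, the receptor trafficking partners, the opioid-binding genes outside the family, and the related somatostatin and neuropeptide receptors.

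In the sex-combined comparison the median log2 fold change of the lists lay between -0.09, in the 5 inhibitory G protein α subunits, and 0.03, in the 4 GIRK subunits, beside -0.02 over all genes. The 7 receptor kinases and arrestins, which end receptor signaling, had a median of 0.02, and the 9 adenylyl cyclases one of -0.001. The most abundant inhibitory α subunit gene, *Gnao1*, was at a mean of 402 CPM, above each of the receptors. Of the 6 related receptors, *Sstr2* was highest at 3.30 CPM per kb (joined exons), above *Oprd1*, and *Sstr5* lowest at 0.0958, below *Oprm1*.

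Genes next to the receptors showed no call either. *Ipcef1*, which overlaps *Oprm1*, had a sex-combined log2 fold change of 0.11 ± 0.12 (SE), and none of the 7 tested genes that overlap or flank a receptor was called in any of the 5 comparisons. The other 3 such genes, *Gm10945*, *Gm10300*, and *Lkaaear1*, had means of at most 0.166 CPM and were not tested.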

How the data were processed

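The authors sequenced poly-A RNA of 12 brainstems as 100 bp single-end reads on 1 lane. Per the labels and the paper's methods, reads were trimmed with Trimmomatic, aligned to mm10 with STAR, and counted per gene with featureCounts (Subread), and the deposited values are these raw counts. The paper calls the counts normalized, but they are whole numbers with different totals, so they were taken as raw. The settings for strand and multiply mapped reads were not given in the sources used here. Groups came from the labels. Treatments were assigned within litters, so saline and morphine mice may share a litter. The series' design text names the dam as a covariate, but no label gives it, and the fits leave it out.

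Fits used edgeR 4.0.16 in R 4.3.3 on the whole table (filterByExpr, TMM normalization, quasi-likelihood test, Benjamini-Hochberg adjustment over all genes tested), and the fit of both sexes together had sex as a covariate. A call needed a log2 fold change of more than 0.26 in size and a p below 0.05 before adjustment, thresholds taken from the paper. SEs and p values measure the spread between 3 or 6 mice per group. CPM uses TMM factors over all 12 libraries, and log2 CPM a prior count of 2. Ratios of counts had 0.5 added and were compared with exact permutation tests in scipy 1.17.1, which cannot go below 0.0022 with 6 mice per treatment. Lengths were taken from GENCODE M21 and start sequences from RefSeq. Alternatives were exactTest, DESeq2 1.42.0, DESeq2's size factors, scaling by total counts, 2 other filters on low counts, no covariate, a replicate block, a joint fit of 4 groups, other lengths, and each mouse left out in turn. Leaving out saline male 3 together with the library labelled morphine male 6 was chosen after seeing the data. The fits were also run on simulated counts that held no deviating library, and no result given here rests on that run.

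The 4 receptors, the gene lists, and the tests were chosen with earlier results of these data known. Genes named were the receptors, the precursors, up to 3 called genes per list and comparison, overlapping and adjacent genes, and for each receptor the 3 genes with the highest Pearson r among tested genes with a mean of at least 1 CPM. The genes of the raphe and cholinergic lists were named because that search found 1 gene of each.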

Additional observations from a re-analysis of the deposited data

Results flagged for a closer look

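The interaction term, the male minus the female response to morphine, was called in 3 of 60 genes of opioid signaling, or 5.00%, against 2.94% of all 19027 genes tested, with an adjusted *p* of 0.98 each in edgeR. For *Kcnj6*, a GIRK subunit gene, the male log2 fold change exceeded the female one by 0.68 ± 0.23 (SE). *Kcnj6* was higher in 3 of 3 morphine males, the library labelled morphine male 6 among them, than in any saline male. How many of all genes do the same was not counted. For *Pnoc*, the nociceptin precursor, the difference was -1.13 ± 0.52 (SE), and it was -0.83 and not called without saline male 1, 1 of the 2 saline males with over 12 CPM. The *Pnoc* call was lost in 8 of 12 fits with 1 mouse left out. For *Rgs14*, a regulator of G protein signaling, the difference was -1.58 ± 0.71 (SE), from 2 to 27 counts per library. Its call was lost in 8 of 12 such fits, and the difference was -1.28 without saline male 2. None of the 4 receptors was among the genes with such a difference. The 22 groups of 6 mice examined, saline and morphine for each receptor and each named signaling gene, held no library that stood apart by Dixon's criterion. That criterion measures the gap at 1 extreme value and can miss 2 that are high together. Saline males 1 and 2, at 14.1 and 12.5 CPM of *Pnoc*, were such a pair.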

How the results depend on the processing

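The count of 0 receptors called held in the sex-combined, female, male, and interaction comparisons under every alternative run, as did the count of 0 receptor pairs. Between males and females 1 receptor, *Oprd1*, was called on p alone and without saline male 3 together with the library labelled morphine male 6 (an alternative chosen after seeing the data), and from 0 to 1 were called with each mouse left out. The order of levels passed at 3 of 3 steps with the joined exons and with each mouse left out, and at 2 with the longest transcript. The *Oprd1* over *Oprk1* log2 ratio per kb turned to -0.10 with the longest transcript and to -0.29 with the coding length.

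Of 336 recomputed receptor fold changes, 42 changed sign, none of them called. Scaling by total counts moved the log2 fold changes of the 4 receptors in males upward by 0.126 to 0.128, and turned the sex-combined values of *Oprd1* and *Oprk1* to 0.035 and 0.033, and those of *Oprk1* to 0.079 in males and 0.092 in the interaction. Keeping only genes with 10 or more counts in all libraries gave 0.010 for *Oprk1* in the interaction. Without both doubted libraries *Oprk1* was at 0.065 (sex-combined), 0.22 (males), and 0.21 (interaction), *Oprl1* at -0.029 (interaction), *Oprm1* at 0.077 (male versus female), and *Oprk1*/*Oprl1* at 0.041.

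With each mouse left out, these results changed sign. In the sex-combined comparison *Oprm1* ran from -0.020 to 0.22, *Oprd1* from -0.073 to 0.025, and *Oprk1* from -0.091 to 0.069. In females *Oprm1* ran from -0.34 to 0.14, *Oprk1* from -0.15 to 0.099, and *Oprl1* from -0.021 to 0.088. In males *Oprk1* ran from -0.21 to 0.22 and *Oprl1* from -0.010 to 0.14. In the interaction *Oprk1* ran from -0.17 to 0.20 and *Oprl1* from -0.061 to 0.075. Between the sexes *Oprm1* ran from -0.24 to 0.0020 and *Oprl1* from -0.016 to 0.048. The morphine minus saline log2 ratio ran from -0.033 to 0.21 for *Oprm1*/*Oprk1*, from -0.027 to 0.21 for *Oprm1*/*Oprl1*, from -0.094 to 0.084 for *Oprd1*/*Oprk1*, from -0.11 to 0.0043 for *Oprd1*/*Oprl1*, and from -0.12 to 0.012 for *Oprk1*/*Oprl1*.

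Calls over all genes moved more. Without a filter on low counts they rose from 221 to 754 (sex-combined), 328 to 1094 (females), 543 to 985 (males), 559 to 1665 (interaction), and 733 to 2321 (male versus female), and the joint fit of 4 groups gave 218 in females. With each mouse left out they ran from 177 to 458, 208 to 1482, 253 to 5341, 290 to 4695, and 330 to 3947, in the same order. The highest of these came without saline male 3, except in females, where it came without saline female 4. Without both doubted libraries they were 380, 7548, 5952, and 3189, with females not refitted. The cause was not tested. The signaling genes lost their calls in 39 of 115 recomputed values with the direction kept in all 115, among them *Pnoc* in the interaction with scaling by total counts and with the stricter filter, and *Rgs14* with scaling by total counts, no filter, and DESeq2.

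Mice with the same number did not deviate together (correlations between -0.34 and 0.18), and the labels tie them to nothing shared. With a replicate block 0 receptors were called, and 204 genes against 221. The *Oprk1* value moved from -0.018 to -0.0058.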
